A study of Mus musculus with 6 samples.

Results

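The proteasome subunit genes of mouse adipocytes are described here in cells with and without a knockdown of RBMS1, an RNA-binding protein that acts on messenger RNA. The 42 genes, of 45706 in the table, were chosen by name alone: Psma, Psmb, Psmc, Psmd or Psme followed by a number, without pseudogenes and without the immunoproteasome genes Psmb8, Psmb9 and Psmb10. They hold 16 genes of the 20S core, 17 of the 19S cap, 3 chaperones that help to assemble the cap (Psmd5, Psmd9 and Psmd10) and 5 genes of activators that can cap the core in its place. The last one, Psmc3ip, encodes a partner of Psmc3 that is known from meiotic recombination and is not a subunit. It was kept under the name rule, and the summary values are also given without it.

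The proteasome degrades proteins that carry chains of ubiquitin. The core is a barrel of alpha and beta subunits whose beta rings hold the cutting sites, and the cap binds ubiquitin chains, removes them, unfolds the protein with its ring of ATPases and feeds it into the barrel. The subunits have to be made in matched amounts, and cells short of proteasome activity raise them together through the transcription factor NRF1, encoded by Nfe2l1. In fat cells the proteasome also clears lipid droplet proteins and transcription factors of adipogenesis.

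All 6 samples were 3T3-L1 cells, a mouse embryo fibroblast line that becomes adipocytes after a cocktail of IBMX, insulin, dexamethasone and rosiglitazone, and all were collected on day 7 of differentiation, after the cocktail had been replaced. The 3 control cultures carried a scrambled shRNA and the 3 RBMS1 knockdown cultures an shRNA against Rbms1, in both cases delivered by lentivirus and kept under puromycin selection. The lines were thus stable, selected pools of 1 cell line. Levels are given below as CPM, the counts of a gene relative to the size of its library after TMM scaling between samples. In the data used here RNA alone was measured, not protein. Rbms1 itself stood at 113, 101 and 99.4 CPM in the controls and at 49.0, 61.2 and 83.8 CPM in the knockdown cultures. The groups did not overlap, and the log2 fold change of -0.69 (SE 0.20) had a Benjamini-Hochberg adjusted p of 0.185 in the edgeR quasi-likelihood fit. The authors reported the knockdown at the protein level by immunoblotting. Libraries held 3142695 to 11073098 counts, and genes derived from ribosomal RNA took 43.0% of control replicate 2 against 8.12% to 17.8% of the others. Markers of adipocytes were plentiful in every sample, and Epcam and Cdh1 of epithelia had no count in any sample. Of 4 macrophage markers Adgre1 and Ptprc had no count, Csf1r had 0 to 4 counts and Cd68 4 to 28, and the list summed to 1.20 to 2.48 CPM in the controls and 2.05 to 3.26 CPM in the knockdown cultures. The 2 endothelial markers summed to at most 1.98 CPM. Fewer cells of a type and less RNA per cell cannot be told apart in such bulk samples.

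Promoter entries of RefSeq (GRCm38.p6) were found for 35 of the 42 genes, Psmc3ip among them. The 250 bases before the start were searched on both strands for TGACNNNGC, the core of the antioxidant response element that NRF1 uses, and for CCAAT, the box bound by NF-Y. The patterns can overlap by a shared end letter, and each was counted by itself. TGACNNNGC was present in 5 of 34 genes other than Psmc3ip, 14.7%, against 11.5% of 27025 genes with an entry. CCAAT was present in 13 of the 34 genes, 38.2%, against 37.5% of all genes. Both shares lay near those of all genes, and a match of letters does not make a binding site. The 5 matches to TGACNNNGC are shown with up to 10 bases on either side, in the direction of the gene, with the match in capitals, because they fall in genes of different roles: a pair of cutting subunits, an ATPase, a lid subunit and a chaperone. The matches GCTAAGTCA and GCTGTGTCA lie on the opposite strand of their genes.
Psmb5, chr14:54618024-54618052, minus strand: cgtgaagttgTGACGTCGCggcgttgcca
Psmb6, chr11:70525338-70525356, plus strand: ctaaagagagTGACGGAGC
Psmc6, chr14:45329587-45329615, plus strand: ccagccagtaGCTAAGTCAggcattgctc
Psmd12, chr11:107479278-107479299, plus strand: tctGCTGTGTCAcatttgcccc
Psmd9, chr5:123228149-123228177, plus strand: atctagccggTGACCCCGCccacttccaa

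No proteasome gene passed the test between the groups. Of the 42 genes, 39 passed the filter on low counts, and edgeR called 0 of these 39 at an adjusted p up to 0.1, where 1.22% of 11440 tested genes were called, 0.909% lower and 0.315% higher in the knockdown cultures. At an adjusted p under 0.05 it called 0 of the 39, against 0.463% of all tested genes. DESeq2 called 0 of them as well, against 3.2% of the genes it gave an adjusted p. The lowest adjusted p that edgeR gave any member was 0.315. An unadjusted p under 0.05 was reached by Psma2 and Psmb7, 2 of 39, both with lower values in the knockdown cultures, where 12.4% of all tested genes reached it, 6.98% lower and 5.45% higher. Dropping knockdown replicate 1 made that count 10 and the share of all tested genes 17.4%. Dropping knockdown replicate 2 made them 0 and 9.54%.

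The values leaned to one side without passing the test. The log2 fold change was below 0 for 30 of the 39 genes, where 49.6% of all tested genes were below 0, and for 7 of 39 when library size alone was used for scaling. The median over the members was -0.18, beside 0.0044 over all tested genes and 0.011 over the 8970 tested genes whose mean level lay within the range of the members. Scaling by library size alone moved the median of all genes to 0.37 and that of the members to 0.19, which left the members -0.18 relative to all genes. Directions below are those after TMM scaling, and under library size alone Psmb5, Psmb6, Psmd4, Psmd6 and Psme3 of the genes described in full turned above 0. Single genes depended on single cultures: 34 of the 39 changed sign or moved by over 1.5 times in at least 1 of the 6 fits that left out a culture, 11 of them with a change of sign. In all 6 of these fits 26 genes stayed below 0 and 2 above. Leaving out Psmc3ip gave 29 of 38 genes below 0 and a median of -0.18. The members had an interquartile range of 0.298 on the log2 scale, against 0.464 for all tested genes and 0.419 for the 8970 genes. Those 8970 genes ran from 5.97 to 244 CPM in mean level and were not matched to single members. The intervals of single genes were also narrower for the members. Their median half-width was 0.386 on the log2 scale, against 0.524 for all tested genes and 0.480 for the 8970 genes. Whether the members were spread less than genes measured as precisely was not tested.

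The 3 knockdown cultures did not sit at the same distance from the controls. The median log2 level of the 39 genes relative to the mean of the controls was -0.070, 0.0032 and 0.12 in control replicates 1 to 3. It was -0.024, -0.29 and -0.15 in knockdown replicates 1 to 3, so that knockdown replicate 1 lay within the range of the controls and the other 2 lay below it. The mean was 0.018 ± 0.096 in the controls and -0.16 ± 0.13 in the knockdown cultures (SD, n = 3). In knockdown replicates 1, 2 and 3, 25, 33 and 34 of the 39 genes were below the control mean, and 11, 24 and 20 genes were below the lowest control. Knockdown replicate 1 was the highest of the 3 knockdown cultures for 28 of the 39 genes. The same culture had the lowest Rbms1 level of its group, at 49.0 CPM against 61.2 and 83.8 CPM in replicates 2 and 3. A link between Rbms1 and these values was not tested.

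**Figure D1:**
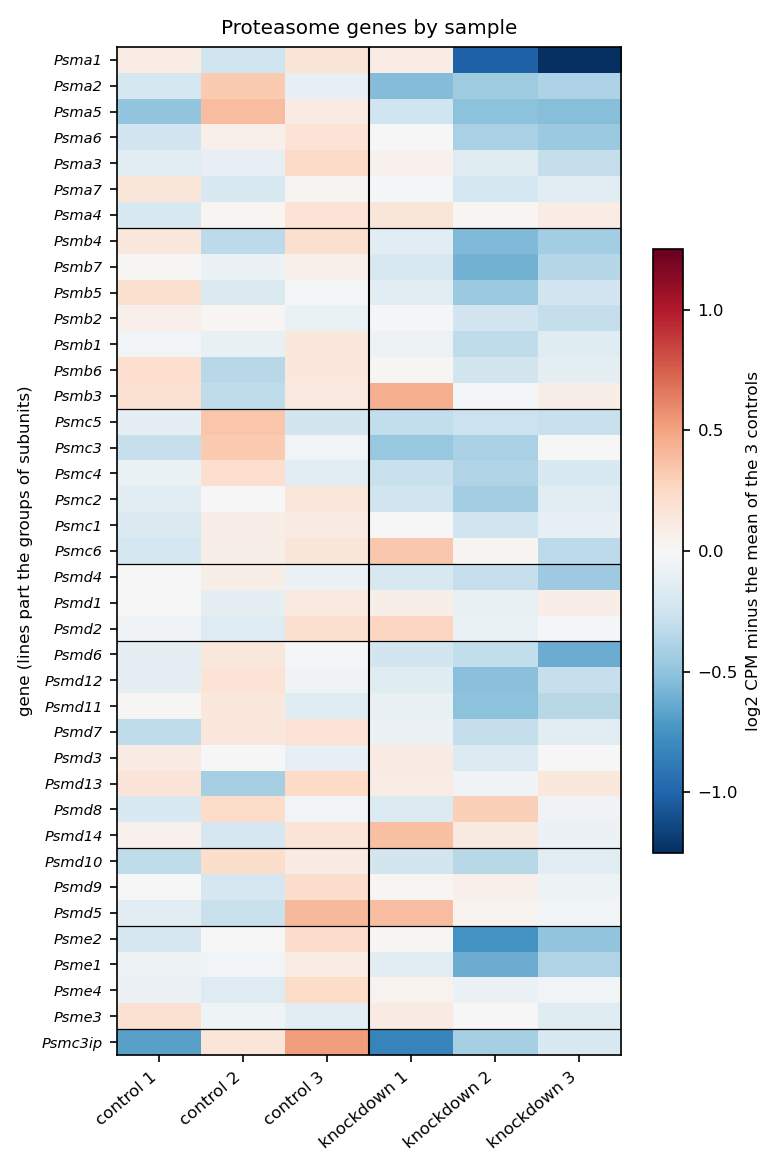
The heat map gives the log2 CPM of the 39 tested genes (rows, parted by lines into groups of subunits) in the 6 samples (columns), as the difference from the mean of the 3 controls. Blue cells, which mark lower levels, are most frequent in knockdown replicates 2 and 3, whose medians were -0.29 and -0.15, and knockdown replicate 1 had a median of -0.024.

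The marker genes of the cultures differed between the same samples. The summed level of 8 adipocyte markers was 20309, 21597 and 23532 CPM in the controls and 19474, 11117 and 13154 CPM in knockdown replicates 1 to 3. Lpl, the lipase that frees fatty acids from lipoproteins, made up 42.4% to 61.5% of each sum, and the other 7 markers summed to 8064, 9668 and 9056 CPM and to 9290, 5781 and 7573 CPM. Cd36, a fatty acid transporter of the same list, was higher in every knockdown culture, at 612 to 786 CPM in the controls and 898 to 1295 CPM in the knockdown cultures. The summed level of 5 fibroblast and preadipocyte markers was 4008, 2816 and 2633 CPM in the controls and 1106, 2902 and 3163 CPM in the knockdown cultures. Col1a1 was most of each sum, at 3284, 2214 and 2018 CPM in the controls and 873, 2375 and 2640 CPM in the knockdown cultures. Of the other genes, Pdgfra and Dlk1 were lower in every knockdown culture than in any control. The groups of Thy1 and Pdgfrb overlapped. Each of the 5 was lowest in knockdown replicate 1. Knockdown replicate 1, whose proteasome genes were nearest to the controls, therefore had the highest adipocyte sum, with or without Lpl, and the lowest fibroblast sum of its group. Of these 13 marker genes edgeR called 0 at an adjusted p up to 0.1, with 4 at an unadjusted p under 0.05. DESeq2 called 3 of them, Cd36 as higher (adjusted p = 0.0156) and Pdgfra (0.0277) and Lpl (0.0323) as lower in the knockdown cultures, and their part in the proteasome values was not tested.

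The genes of the 20S core had mostly lower values in the knockdown cultures. Of its 14 tested genes 12 were below 0 and 2 were above, with a median log2 fold change of -0.24. That median was -0.31 without knockdown replicate 1 and -0.16 without knockdown replicate 2. Groups that did not overlap were found for 2 of the 14, both lower in the knockdown cultures, beside 9.55% of all tested genes apart in that direction. The alpha ring, which gates the entry to the barrel, had 6 of 7 genes below 0 and a median of -0.29. The beta ring also had 6 of 7 genes below 0, with a median of -0.18. The summed level of the core was 1167, 1091 and 1265 CPM in the controls and 1158, 849 and 858 CPM in the knockdown cultures. With Psma1 left out the sums were 855, 845 and 937 CPM and 846, 704 and 735 CPM, so that knockdown replicates 2 and 3 stayed below every control and replicate 1 lay between controls 2 and 1.

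Psma1, an alpha ring gene on chromosome 7 (114264606 to 114276118, GRCm38, minus strand), had the log2 fold change farthest from 0 of the 39 genes, although Psmc3ip or Psma2 was lower in 4 of the 6 fits that left out 1 culture. Its level was 311, 246 and 327 CPM in the controls and 312, 145 and 123 CPM in the knockdown cultures. Knockdown replicate 1 lay among the controls, and the other 2 lay far below them. The SD of its log2 level was 0.717 in the knockdown cultures and 0.220 in the controls, and its log2 fold change was -0.61 (SE 0.32, 95% interval -1.33 to 0.10, adjusted p = 0.479 by edgeR with Benjamini-Hochberg adjustment). Without knockdown replicate 1 its log2 fold change was -1.13 with an adjusted p of 0.0115, the only call of a member under the alternatives run. Without knockdown replicate 2 or 3 it was -0.43 or -0.36, with edgeR adjusted p of 0.765 or 0.697. Psma1 made up 26.7%, 22.6% and 25.9% of the CPM of the core in the controls and 26.9%, 17.1% and 14.3% in the knockdown cultures. The sums of adipocyte markers were lower in the 2 cultures with low Psma1, and the part of this difference was not tested.

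The promoter of Psma1 is shown because it carries CCAAT on both strands within a short stretch and no match to TGACNNNGC. The capitals mark CCAAT and, where it lies on the other strand, ATTGG.
Psma1, chr7:114276200-114276252, minus strand: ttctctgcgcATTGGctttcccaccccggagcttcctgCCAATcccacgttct

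Psma2, another alpha ring gene (chromosome 13, 14613240 to 14674236), had the smallest p of the members. Its level was 48.9, 71.3 and 52.9 CPM in the controls and 39.1, 41.7 and 43.5 CPM in the knockdown cultures. The groups did not overlap, although the spread of the controls came mostly from replicate 2. The log2 fold change was -0.47 (SE 0.178, 95% interval -0.87 to -0.070), and edgeR gave a p of 0.026 before and 0.315 after adjustment. Without control replicate 2 the value was -0.30 and the unadjusted edgeR p 0.114, and that p was also above 0.05 without knockdown replicate 1 or 2. Psma5 had the same log2 fold change, -0.47, with overlapping groups and an edgeR adjusted p of 0.438, and was -0.27 without control replicate 2 and -0.67 without control replicate 1. Psma4 was the only alpha gene above 0, at 61.4, 71.3 and 78.8 CPM in the controls and 78.2, 71.4 and 74.6 CPM in the knockdown cultures, a log2 fold change of 0.08 with an edgeR adjusted p of 0.869. Psma3, Psma6 and Psma7 lay between -0.29 and -0.14.

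The beta ring holds the 3 cutting subunits, Psmb5, Psmb6 and Psmb7, which cleave after hydrophobic, acidic and basic residues. Psmb7 (chromosome 2, 38588036 to 38644087) stood at 101, 95.1 and 104 CPM in the controls and at 87.2, 66.5 and 78.1 CPM in the knockdown cultures, with no overlap. Its log2 fold change was -0.38 (SE 0.152, 95% interval -0.72 to -0.035), and edgeR gave a p of 0.034 before and 0.351 after adjustment. The unadjusted p was above 0.05 without control replicate 1 or 3 and without knockdown replicate 2 or 3. Psmb5, the target of bortezomib, stood at 55.6, 42.6 and 47.7 CPM in the controls and at 43.7, 34.98 and 40.9 CPM in the knockdown cultures. These groups overlapped, since knockdown replicate 1 exceeded control replicate 2, and the log2 fold change was -0.29 (SE 0.17, edgeR adjusted p = 0.529). Without control replicate 1 or knockdown replicate 2 it was -0.18 or -0.19. Psmb6 stood at 68.8, 46.5 and 65.2 CPM in the controls and at 60.1, 50.5 and 54.6 CPM in the knockdown cultures, which lay inside the range of the controls. Its log2 fold change was -0.13 (edgeR adjusted p = 0.818), and ranged from -0.021 without control replicate 1 to -0.29 without control replicate 2. The intervals of the 3 cutting subunits overlapped each other, and a difference between them was not tested.

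The extremes of the beta ring were structural subunits without a cutting site. Psmb4 had the lowest log2 fold change of the ring, at 54.4, 39.6 and 57.0 CPM in the controls and 45.0, 33.8 and 36.7 CPM in the knockdown cultures, which came to -0.39 with an edgeR adjusted p of 0.451. Psmb3 had the highest log2 fold change of all 39 genes, at 50.7, 35.6 and 48.2 CPM in the controls and 60.2, 44.0 and 46.6 CPM in the knockdown cultures. The groups of Psmb3 overlapped, and this value of 0.16 had an edgeR adjusted p of 0.794. Its place as the highest rested on single cultures: without knockdown replicate 1 or control replicate 2 it was 0.017 or 0.019, below Psmd8 at 0.13 or 0.15. Without control replicate 3 or knockdown replicate 3 it was 0.215 or 0.216, below Psmd14 at 0.221 or 0.242. Psmb1 and Psmb2 were both at -0.18.

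**Figure D2:**
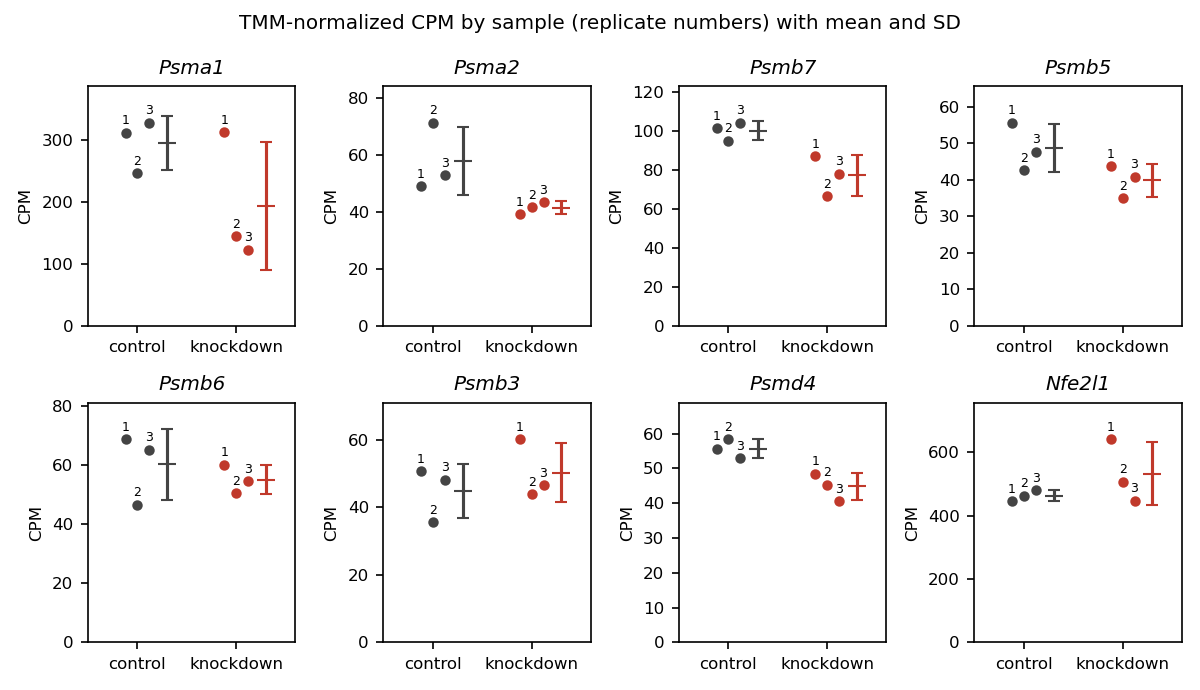
Each panel gives the CPM of 1 gene in the 3 control (grey) and 3 knockdown (red) cultures, numbered by replicate, with a bar for the mean and SD. Psma1 of knockdown replicate 1 sits at 312 CPM beside the controls, Psma2, Psmb7 and Psmd4 have groups that do not overlap, and Psmb6 and Psmb3 overlap.

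The genes of the 19S cap lay on both sides of 0. Of 17 genes, all tested, 11 were below 0 and 6 above, with a median log2 fold change of -0.18. Leaving out control replicate 3 or knockdown replicate 2 moved that median to -0.088 or -0.10, and leaving out control replicate 1 moved it to -0.30. Without control replicate 1 the cap was thus lower than the core, whose median was -0.20. Without knockdown replicate 3 both were at -0.19. The summed level of the cap was 1148, 1253 and 1255 CPM in the controls and 1218, 1068 and 1109 CPM in the knockdown cultures, and the groups overlapped because knockdown replicate 1 lay above control replicate 1. Psmc4, Psmc5, Psmd4, Psmd6 and Psmd12, 5 of the 17 genes, had groups that did not overlap, all lower in the knockdown cultures. Over all members there were 8 such genes and 0 with every knockdown value above the controls, where 9.55% and 8.96% of all tested genes had groups apart in these directions.

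The base of the cap holds the ATPases and the large scaffold and ubiquitin-binding subunits. Its 6 ATPase genes, Psmc1 to Psmc6, had a median of -0.28 with 5 below 0. Psmc6 was at 0.03, with 70.6 and 72.2 CPM as the means of the controls and of the knockdown cultures, and at -0.13 without knockdown replicate 1 and -0.07 without control replicate 1. Among the 3 other base genes, the ubiquitin receptor Psmd4 had the lowest log2 fold change. Its level was 55.6, 58.4 and 52.9 CPM in the controls and 48.5, 45.4 and 40.6 CPM in the knockdown cultures, without overlap, and its log2 fold change was -0.31 (SE 0.149, edgeR adjusted p = 0.437). The scaffolds Psmd1 and Psmd2 were at 0.02 and 0.06, and Psmd2 stood at 178, 164 and 211 CPM in the controls and 221, 173 and 181 CPM in the knockdown cultures (edgeR adjusted p = 0.926). The sign of such small values turned with the setting, since Psmd2 was -0.022 without control replicate 2 and Psmd1 was -0.23 with chromosome medians removed.

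The lid, which holds the deubiquitinase Psmd14, had a median of -0.10 over 8 genes, 5 of them below 0. Psmd14, which cuts the ubiquitin chain from the substrate, stood at 60.6, 50.5 and 65.4 CPM in the controls and 75.7, 63.2 and 55.6 CPM in the knockdown cultures. These groups overlapped, and the log2 fold change, the highest of the lid with all 6 cultures, was 0.14 (edgeR adjusted p = 0.803). It was 0.018 without knockdown replicate 1 and 0.038 without control replicate 2, below Psmd8 at 0.13 and 0.15. Psmd6, a structural subunit of the lid, had the lowest, at 39.01, 47.0 and 41.9 CPM in the controls and 36.1, 34.4 and 27.7 CPM in the knockdown cultures. Its groups did not overlap, and its log2 fold change was -0.38 (SE 0.172, edgeR adjusted p = 0.409). Psmd11 and Psmd12 followed at -0.31 and -0.32, and Psmd3, Psmd8 and Psmd13 lay within 0.1 of 0. Psmd7 was at -0.18 and turned to 0.21 when the median shift of its chromosome, 8, was removed from each sample.

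**Figure D3:**
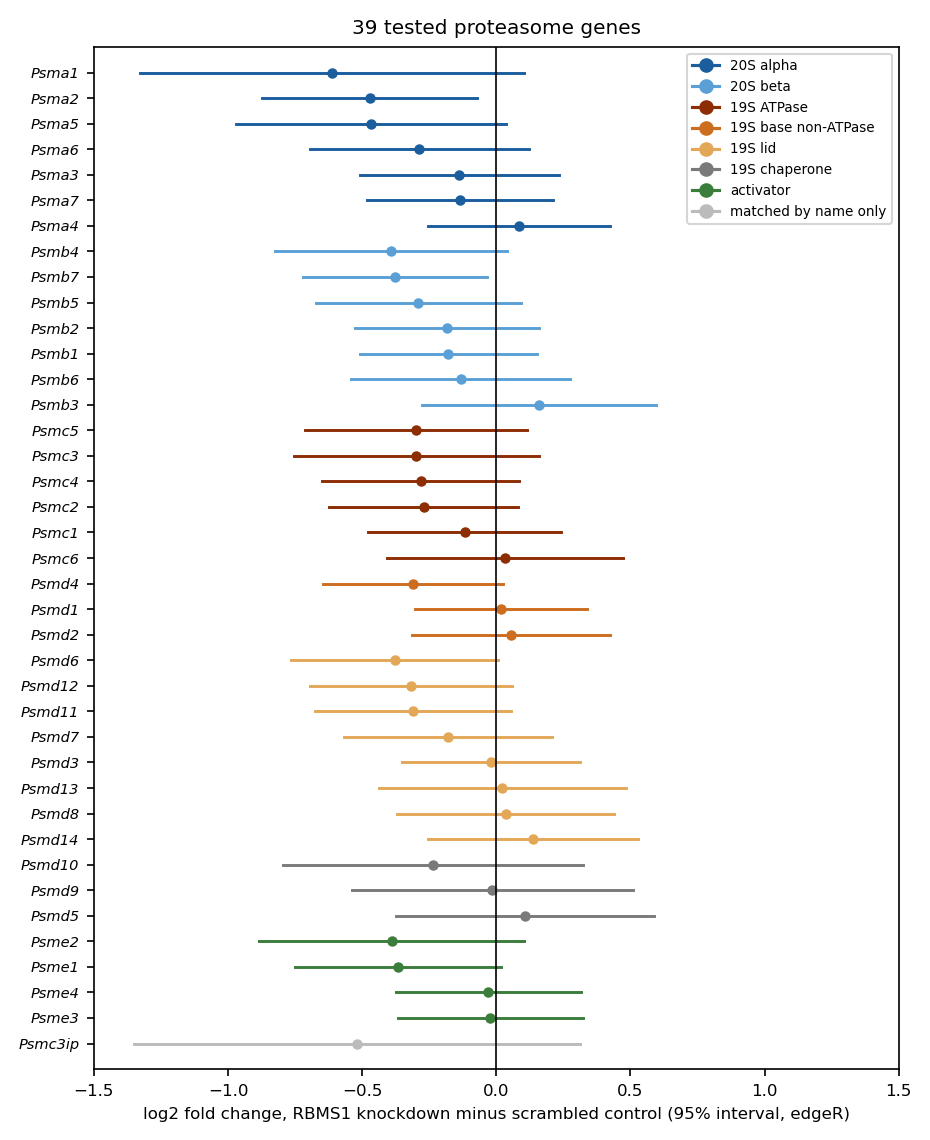
Points give the log2 fold change of each of the 39 tested genes, knockdown minus control, from edgeR, with lines for the 95% interval and colours for the part of the complex. Most points lie left of 0 (30 of 39, or 7 of 39 when scaled by library size alone), and the intervals of 37 of the 39 include 0, with Psma2 and Psmb7 as the exceptions.

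The chaperone genes Psmd10, Psmd9 and Psmd5 had log2 fold changes of -0.23, -0.01 and 0.11, all with overlapping groups. With 1 culture left out they ranged from -0.38 to -0.14, from -0.10 to 0.11 and from -0.02 to 0.34. Of the 4 tested activator genes, Psme1 and Psme2, whose products form a mixed ring that interferon raises, had the lowest log2 fold changes. Psme1 stood at 49.2, 50.002 and 54.9 CPM in the controls and at 46.7, 33.5 and 39.5 CPM in the knockdown cultures, without overlap, a log2 fold change of -0.37 with an edgeR adjusted p of 0.421. Psme2 stood at 42.9, 49.5 and 57.8 CPM and at 50.05, 29.5 and 35.2 CPM, a log2 fold change of -0.39 with an edgeR adjusted p of 0.511. That fold change was -0.62 without knockdown replicate 1 and -0.22 without knockdown replicate 2. Here too knockdown replicate 1 lay among the controls for Psme2 and nearest to them for Psme1. The nuclear activator gene Psme3 stood at 98.2, 82.7 and 78.6 CPM in the controls and 92.5, 85.9 and 77.3 CPM in the knockdown cultures, a log2 fold change of -0.02 (edgeR adjusted p = 0.970), and its sign turned with several settings. Psme4, an activator of histone breakdown in the nucleus, was at -0.03.

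The 3 members that were not tested had next to no counts. Psma8, the alpha subunit of the testis proteasome, had no count in any sample, and Psmb11, the beta subunit of the thymus proteasome, had 1 count in control replicate 1 and none elsewhere. A count of 0 allows up to 3 counts, which is 0.220 to 1.49 CPM in these libraries. Psme2b, a near copy of Psme2, was listed at 0.640, 0.495 and 0.172 CPM in the controls and at 0.287, 0 and 0.513 CPM in the knockdown cultures. Reads of near copies can be shared in the estimated counts, so the split between Psme2 and Psme2b is uncertain, as is that between the subunit genes and their processed pseudogenes, of which 4 rows were left out.

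The precision of the test sets what these values can show. The 95% interval of the median member reached 1.31-fold to either side, and the widest 1.78-fold. Outside Psma1 and Psmc3ip the lowest lower bound was -0.97 and the highest upper bound 0.59 on the log2 scale, from different genes. For 37 of the 39 genes the interval included 0. A difference of a size inside such a gene's own interval could not be told from 0 at this depth and number of cultures. An absolute log2 fold change under 0.1 was found for 10 of the 39 genes.

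Per transcript length, Psma1 stood highest of the members. Levels were divided by the median length of the protein-coding transcripts of each gene and are given as control means in CPM per kb. The 39 genes had a median of 41.8 CPM per kb. The beta ring ran from 42.5 (Psmb4) to 86.4 (Psmb7), and the 6 ATPases ran from 27.5 (Psmc1) to 37.5 (Psmc3). The lid ran from 19.05 (Psmd13) to 51.4 (Psmd11). The alpha ring ran from 19.8 (Psma2) over 90.8 (Psma6) to 273 (Psma1), so that Psma1 was 3.01-fold above the next gene. The size of that gap depends on the length used: over all annotated exons Psma1 was at 99.9 and Psma6 at 67.3 CPM per kb. The chaperones were lower than the tested subunits, from 3.55 (Psmd9) to 9.22 (Psmd5). Over all annotated exons that gap was small, with Psmd10 at 6.74 CPM per kb beside the lid gene Psmd13 at 7.79. By transcript length, the activators ran from 19.3 (Psme4) to 72.3 (Psme1).

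**Figure D4:**
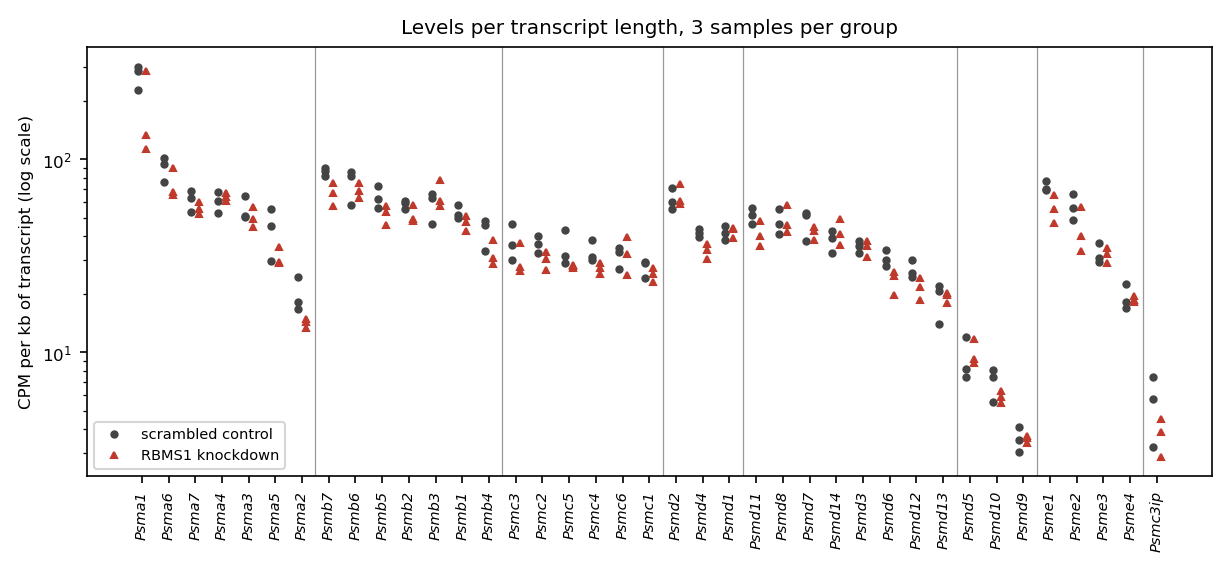
The plot gives the level of each tested gene in CPM per kb of transcript, on a log axis, for the 3 control and 3 knockdown samples, ordered by part of the complex. Psma1 stands highest at 273 CPM per kb in the controls, the 6 ATPases lie between 27.5 and 37.5, and the chaperones lie at 3.55 to 9.22.

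Of the listed other genes of the ubiquitin and proteasome pathway, 37 are summarised here, of which 35 were tested. At an adjusted p up to 0.1 edgeR called 0 of the 35, where 1.22% of all tested genes were called, and 0 had an unadjusted p under 0.05. DESeq2 also called 0 of the 37. The log2 fold change was below 0 for 20 of the 35, with a median of -0.04.

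The regulators and helpers of the proteasome showed no shared direction. Nfe2l1 stood at 445, 463 and 481 CPM in the controls and at 641, 507 and 447 CPM in the knockdown cultures, a log2 fold change of 0.20 (edgeR adjusted p = 0.707), with knockdown replicate 1 the highest. The value was 0.051 without that culture and 0.31 without knockdown replicate 3. Ddi2, the protease that releases NRF1, was at 0.16, and Ngly1, which removes its sugars, was at -0.21 with groups that did not overlap. Of the 8 transcription control genes 5 were below 0, of the 5 assembly chaperones of the core 4, of the 9 shuttle and adaptor factors 2, and of the 4 genes of the p97 segregase 3. Among the assembly chaperones Psmg3 was the only one above 0, at 0.63 with groups apart and an edgeR adjusted p of 0.532. The cap subunits outside the name rule, Adrm1 and Sem1 (listed as Shfm1), were at 0.03 and -0.51, with overlapping groups.

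The immunoproteasome genes, whose products replace the cutting subunits under interferon, were low in these cultures. Psmb10 stood at 16.1, 9.41 and 10.1 CPM in the controls and at 5.59, 6.65 and 12.8 CPM in the knockdown cultures, a log2 fold change of -0.51 with an edgeR adjusted p of 0.608. It was -0.21 without control replicate 1 and -0.29 without knockdown replicate 1, -0.97 without knockdown replicate 3, and -0.14 with chromosome medians removed. Psmb8 had 3 to 16 counts per library, at 1.49 to 2.56 CPM in the controls and 0.574 to 1.10 CPM in the knockdown cultures, and Psmb9 had 1 to 7 counts, and neither passed the filter. The standard cutting subunits Psmb5, Psmb6 and Psmb7 were each at 34.98 CPM or more in every sample.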

How the data were processed

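RNA of 6 cultures was sequenced from stranded, ribosomal RNA-depleted libraries. The authors trimmed reads with Trim Galore 0.6.7, used STAR 2.7.10a to align them to GRCm38, and deposited estimated counts per gene made with Salmon 1.9.0, without normalization. The annotation release is not given in the sources used here. For the present work the counts were rounded and fitted over all genes with edgeR 4.0.16 (filterByExpr, TMM, glmQLFit and glmQLFTest on the condition alone) in R 4.3.3, with Benjamini-Hochberg adjustment over 11440 tested genes and calls at 0.1 or less. The fit was also run on simulated data, whose outcome is not reported here and is not used as support for any result. DESeq2 1.42.0 and limma-voom 3.58.1 were alternatives. Intervals use the model's standard error. An exact permutation of 3 against 3 cultures reaches 0.1 at best, so only the model was used. Positions and lengths come from a GRCm38 annotation, and promoter sequences from RefSeq GRCm38.p6.

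The members and gene lists were chosen with earlier results of these data known. The genes given in full were the members with an unadjusted p under 0.05, the 3 cutting subunits, the highest and lowest of the alpha ring, the beta ring, the cap's base, its lid and the activators, Nfe2l1 and the immunoproteasome genes. Other genes named, such as Psme1, were added after their values were seen. A listed pathway gene that the rule also takes is not reported here.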

Additional observations from a re-analysis of the deposited data

How the results depend on the processing

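The number of called members was 0 under every alternative except when replicates were left out in turn, where it ranged from 0 to 1, the 1 being Psma1 without RBMS1 knockdown replicate 1. The median log2 fold change of the members was below 0 under 17 of 18 alternatives and ranged from -0.23 to -0.14 when replicates were left out, and it was 0.19 when scaled by library size alone, where all genes shifted together by a median of 0.37. That scaling also turned Psmb5 to 0.061, Psmb6 to 0.20, Psmd4 to 0.067, Psmd6 to 0.0079 and Psme3 to 0.34. Removing chromosome medians turned Psmd2 to -0.019 and Psme3 to 0.055. When replicates were left out, Psma4 ranged from -0.0017 to 0.17, Psmd2 from -0.050 to 0.17 and Psme3 from -0.085 to 0.086, so that each changed sign. For these genes the cause was not tested. Same-numbered samples did not deviate together (correlations of -0.14, 0.078 and -0.028), and the fit with a replicate block called 0 members, with a median of -0.19.

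Over all genes, edgeR called 140. DESeq2 called 430 and the fit without a filter 268, the replicate block 39 and the removal of chromosome medians 71. Leaving out replicates gave between 12 (without control replicate 2) and 696 (without knockdown replicate 1). Depth limits Psmb8, Psmb9, Psmb11, Psma8 and Psme2b, which the filter removed. No alternative addressed the sharing of reads between near copies.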
